A study of Mus musculus with 6 samples.

Results

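The 34 genes described here make cholesterol and fatty acids, set how much of them is made, or move cholesterol out of the cell. They were chosen by name, and those that averaged 1 FPKM or more across all 6 libraries were tested, which kept 33 of the 34 out of 18122 genes in the table. FPKM is a level scaled to gene length and to the mapped fragments of its library. The genes fell into 4 classes: 18 sterol synthesis enzymes, 6 SREBP regulators and a sterol carrier, 8 enzymes of fatty acid synthesis and desaturation, and 2 cholesterol exporters. Every gene of the first 3 classes passed the filter. Of the exporters, Abca1 fell below it with a mean of 0.200 FPKM. The genes nearest above it were Scd1 at a mean of 1.42 FPKM and Abcg1 at 1.70 FPKM. Scd1 and Fads2 averaged 0.629 and 0.966 FPKM over the 3 WT libraries, so they passed through their levels in Dusp2-/- cells.

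Cholesterol is built from acetyl-CoA through mevalonate, isoprenoid units, squalene and lanosterol, while fatty acids are built from the same acetyl-CoA through malonyl-CoA and are then elongated and desaturated. SREBP transcription factors drive both branches: they are held in the endoplasmic reticulum by SCAP and INSIG proteins while sterol is plentiful and are released and cleaved when it is scarce. Activated T cells are known to turn on these genes as they grow and build membrane. The oxysterol receptor LXR is known to drive exporters such as Abca1 and Abcg1, and also Srebf1 and the stearoyl-CoA desaturases.

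The cells were CD8+ T cells of mouse lymph nodes, from Dusp2-/- mice, which lack a nuclear phosphatase of MAP kinases, and from WT mice. All were activated the same way for 18 h, with anti-CD3 coated on the plate and soluble anti-CD28 (each 1 µg/mL), 50 ng/mL of the interferon IFN-α and 20 ng/mL of the cytokine IL-4. The adhesion receptor CD44 on the surface then served to sort cells with very much of it (CD44hi) from cells with little (CD44lo). There were 2 Dusp2-/- CD44hi, 2 WT CD44hi, 1 Dusp2-/- CD44lo and 1 WT CD44lo libraries. The labels do not say whether the libraries came from separate animals, so p-values measure the spread between these libraries, which may be technical. The treatment text also names floxed Rpa1 mice carrying Cd4-Cre, a T cell deleter strain. Rpa1 was at 41.3 and 41.4 FPKM in Dusp2-/- CD44hi, 33.7 and 35.2 FPKM in WT CD44hi and, in the CD44lo fraction, 28.2 FPKM in Dusp2-/- and 27.4 FPKM in WT, so it was not depleted in any library.

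The deleted gene was checked first: Dusp2 was at 0 and 0.0283 FPKM in Dusp2-/- CD44hi, 82.6 and 83.9 FPKM in WT CD44hi and, in the CD44lo fraction, 0 in Dusp2-/- and 116 FPKM in WT. Depth, in reads recovered from the FPKM values, was 23490008 for Dusp2-/- CD44lo and 42816073 to 55830235 for the other libraries. CD8 T cell markers summed to 915 to 1309 FPKM. CD4 T cell, NK, erythroid, and adipocyte and stromal marker sums were below 0.60 FPKM in each library, dendritic cell markers reached 0.610 FPKM, and myeloid markers 2.84 to 4.11 FPKM. The 3 B cell markers measured, of 5 listed, summed to 147 and 150.5 FPKM in Dusp2-/- CD44hi, 123 and 141 FPKM in WT CD44hi and, in the CD44lo fraction, 151 FPKM in Dusp2-/- and 142 FPKM in WT, mostly from Ighm, whereas Cd79a was at 0.379 FPKM or less. Cd79b was at 22.4 and 24.5 FPKM in Dusp2-/- CD44hi and 12.2 and 9.88 FPKM in WT CD44hi. The part of other cells in the results was not tested. Xist was at 15.1 and 15.5 FPKM in the Dusp2-/- CD44hi libraries and at or below 0.00641 FPKM in the others, while Y-linked Ddx3y was at 10.3 to 13.6 FPKM in every library. Genotype and this difference in sex make-up cannot be told apart in CD44hi cells. Mitochondrially encoded genes took 2.73% and 2.94% of reads in Dusp2-/- CD44hi, 2.15% and 2.03% in WT CD44hi, 3.79% in Dusp2-/- CD44lo and 2.56% in WT CD44lo. Across the 9691 genes tested, the difference between genotypes was related to gene length, with Spearman's rho of 0.27 in CD44hi and -0.33 in CD44lo, and so was the difference between the WT CD44hi libraries (0.32), but not that between the Dusp2-/- CD44hi libraries (0.00). Genes of a library share its depth and RNA quality, so these values are descriptions. They bear on the long genes Acaca and Fasn and on the short genes Mvk, Pmvk and Mvd, all described below. Recovered lengths of these 3 short genes were 2715, 1739 and 1887 bases, against a median of 4322 over the genes tested.

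Promoters were read for the letters that SREBP and its partner NF-Y are known to bind. RefSeq promoter windows of build GRCm38.p6 were found for 26 of the 34 genes, and the 250 bases before each start were searched on both strands. The sterol regulatory element TCACNCCAC was held by 1 of the 26 genes, Hmgcs1, against 1.22% of all genes with a window. The NF-Y element CCAAT was held by 19 of the 26, against 37.5% of all genes: by 14 of 15 sterol enzymes, 4 of 5 regulators, 1 of 5 fatty acid genes (Fasn) and 0 of 1 exporter (Abca1). The Sp1 element GGGCGG was held by 22 of 26 genes against 35.4%, and the E-box CANNTG, whose match CAATTG overlaps CCAAT, by 16 of 26 against 69.3%. Windows of a gene with several starts were counted together. The 5 stretches printed here were chosen after the values were seen: Hmgcs1 because it held the sterol element, Idi1 and Hsd17b7 because they were the sterol enzymes that differed between genotypes, Fasn as the fatty acid gene with CCAAT, and Fads2 because it had neither element and the largest log2 difference between genotypes. Capitals mark the sterol element and CCAAT, which reads ATTGG on the other strand. The Hmgcs1 stretch is chr13:119690154-119690282 on the plus strand, and its sterol element, TCACCCCAC, starts 137 bases before the gene's start. The others are the 100 bases before the start: chr13:8885506-8885605 (plus strand) for Idi1, chr1:169969206-169969305 (minus) for Hsd17b7, chr11:120824548-120824647 (minus) for Fasn and chr19:10101504-10101603 (minus) for Fads2.
Hmgcs1: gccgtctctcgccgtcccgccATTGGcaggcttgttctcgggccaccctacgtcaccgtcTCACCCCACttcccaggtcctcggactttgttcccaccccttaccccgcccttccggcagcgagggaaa
Idi1: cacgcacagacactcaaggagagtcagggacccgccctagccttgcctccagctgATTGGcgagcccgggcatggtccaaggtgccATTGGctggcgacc
Hsd17b7: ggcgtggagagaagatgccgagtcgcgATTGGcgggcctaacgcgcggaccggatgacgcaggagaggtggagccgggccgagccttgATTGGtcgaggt
Fasn: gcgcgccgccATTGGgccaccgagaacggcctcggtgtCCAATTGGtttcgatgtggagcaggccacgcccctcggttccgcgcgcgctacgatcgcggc
Fads2: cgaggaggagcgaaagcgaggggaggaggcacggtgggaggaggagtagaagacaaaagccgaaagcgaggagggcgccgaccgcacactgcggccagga
Idi1 and Hsd17b7 each hold 2 CCAAT letters in these 100 bases, and Fasn holds 3, of which a pair overlaps on opposite strands. A match is a description and not a binding site, and the absence of a match speaks only of these windows.

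In CD44hi cells, fatty acid genes were higher in Dusp2-/- than in WT, while the sterol enzymes as a class and the SREBP genes were close between genotypes. The summed FPKM of the 8 fatty acid genes was 290 and 284 in Dusp2-/- CD44hi against 208 and 193 in WT CD44hi, a ratio of 1.43. The 18 sterol enzymes summed to 424 and 433 FPKM in Dusp2-/- CD44hi and 414 and 387 FPKM in WT CD44hi, a ratio of 1.07. The 6 regulators summed to 171 and 164 FPKM in Dusp2-/- CD44hi and 175 and 158 FPKM in WT CD44hi, a ratio of 1.00, and their library values overlapped. The ratio of the fatty acid sum to the sterol sum was 0.683 and 0.656 in Dusp2-/- CD44hi and 0.503 and 0.498 in WT CD44hi. In RNA from a population, fewer cells of a type and less RNA per cell cannot be told apart.

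**Figure D1:**
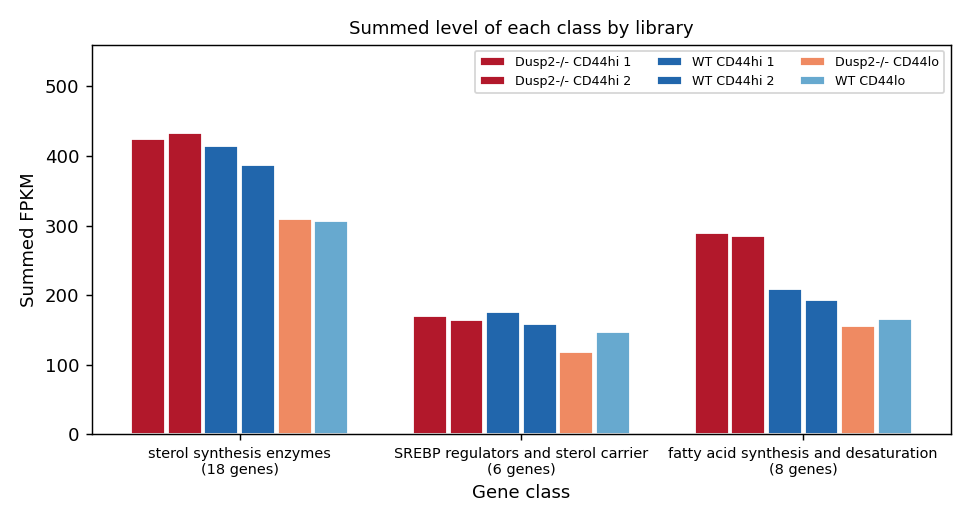
Summed FPKM (vertical axis) of the sterol synthesis enzymes, the regulators with Stard4 and the fatty acid genes, 1 bar per library. The fatty acid bars of the 2 Dusp2-/- CD44hi libraries (290 and 284) stand above the other 4 (155 to 208), whereas the sterol bars differ mainly between CD44hi and CD44lo.

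With limma on log2(FPKM + 1), adjusted by Benjamini-Hochberg over 9691 genes, 11 of the 33 genes were higher in Dusp2-/- CD44hi cells at an adjusted p under 0.05, and 0 were lower (14 at an unadjusted p under 0.05). Over all genes, 12.9% were higher and 13.8% lower. By class, 7 of 8 fatty acid genes, 2 of 18 sterol enzymes, 1 of 6 in the regulator class and the 1 exporter tested were higher. Scd1 and Fads2, among the 7, averaged under 1 FPKM in the WT libraries and passed the filter only through their Dusp2-/- levels. Their calls, and their part in the class median, are therefore tied to the filter. Median log2 fold changes were 0.53 for the fatty acid genes, 0.03 for the sterol enzymes and -0.03 for the regulator class, beside -0.02 for all genes. The 2 Dusp2-/- libraries lay wholly above the 2 WT libraries for 15 of the 33 genes, as for 32.0% of all genes, and wholly below for 4, as for 36.2% of all genes. Without a filter on low values, which tests 18122 genes, 0 of these genes passed limma's threshold (15 at an unadjusted p under 0.05). Without either Dusp2-/- CD44hi library, Acly, Acaca, Hsd17b7 and Stard4 no longer passed and 7 genes did.

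**Figure D2:**
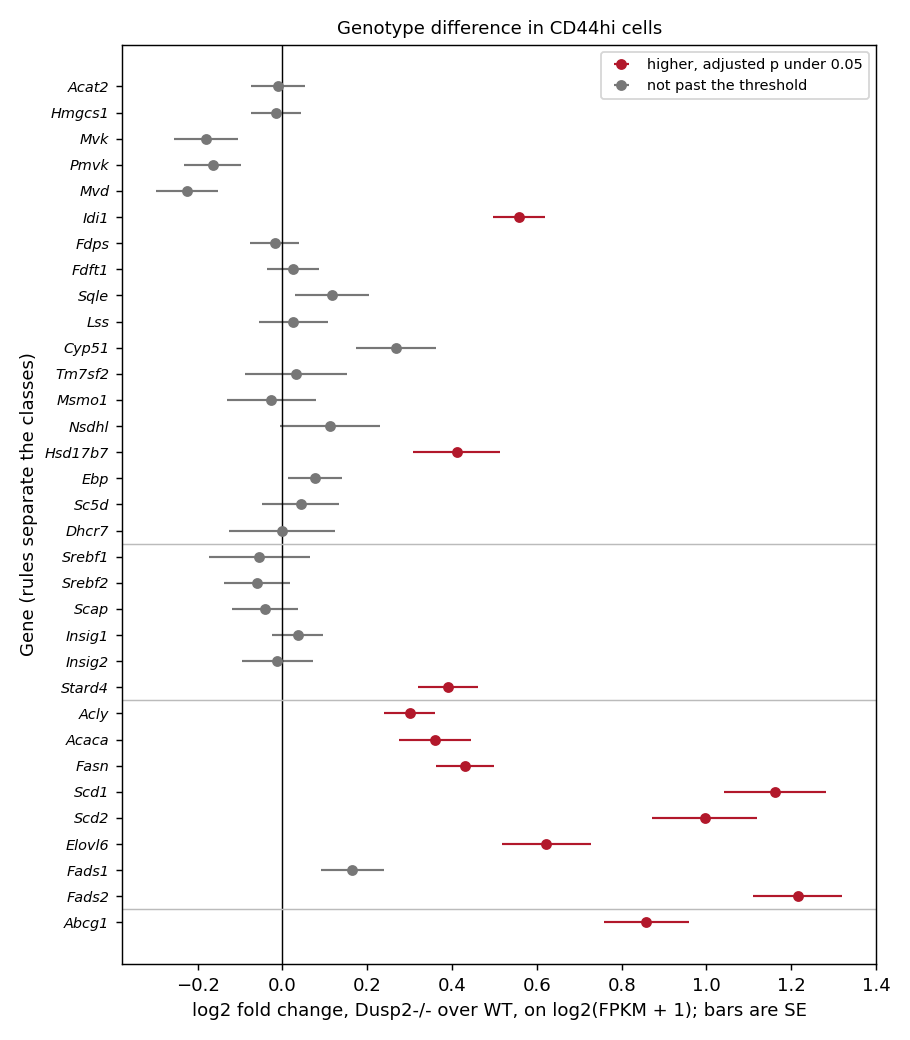
Log2 fold change of Dusp2-/- over WT in CD44hi cells on the log2(FPKM + 1) scale, with its standard error, for the 33 genes tested, in the order of the pathway. Red points passed a limma adjusted p of 0.05: 7 of the 8 fatty acid genes are red, against 2 of the 18 sterol enzymes. Scd1 and Fads2, among these 7, passed the filter only through their Dusp2-/- levels.

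Among the fatty acid genes that passed, those that supply and build the chain had the smaller fold changes. Acly, ATP citrate lyase, which makes cytosolic acetyl-CoA, was at 90.5 and 88.6 FPKM in Dusp2-/- CD44hi, 72.0 and 73.1 FPKM in WT CD44hi and, in the CD44lo fraction, 63.2 FPKM in Dusp2-/- and 67.1 FPKM in WT. Its log2 fold change in CD44hi was 0.30 ± 0.06 (SE; limma adjusted p = 0.0164). Acaca, acetyl-CoA carboxylase, which commits acetyl-CoA to fatty acids, was at 19.1 and 19.1 FPKM in Dusp2-/- CD44hi, 15.8 and 13.6 FPKM in WT CD44hi and, in the CD44lo fraction, 7.40 FPKM in Dusp2-/- and 11.9 FPKM in WT. The Dusp2-/- library of the low fraction was the lowest of the 6 for Acaca, although the Dusp2-/- libraries of the high fraction were the highest. The log2 fold change in CD44hi was 0.36 ± 0.08 (limma adjusted p = 0.0252), and 0.19 (adjusted p = 0.0526) after a trend on gene length was removed. Of 50-base windows in the annotated Acaca transcript, 52.6% also occur in another annotated gene, Gm5182, so its reads could be split. Fasn, fatty acid synthase, which builds palmitate, was at 94.1 and 88.1 FPKM in Dusp2-/- CD44hi, 69.3 and 65.4 FPKM in WT CD44hi and, in the CD44lo fraction, 49.3 FPKM in Dusp2-/- and 56.9 FPKM in WT. Both Dusp2-/- CD44hi libraries lay above every other library for Fasn, whose promoter stretch with 3 CCAAT matches is printed above. Its log2 fold change was 0.43 ± 0.07 (limma adjusted p = 0.00796), and 0.32 (adjusted p = 0.0134) with the length trend removed.

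Scd1, Scd2, Fads2 and Elovl6 had larger fold changes, while the desaturase Fads1 had the smallest of the class. Scd2, a stearoyl-CoA desaturase that makes monounsaturated fatty acids and is the form known from lymphoid cells and brain, was at 64.1 and 67.2 FPKM in Dusp2-/- CD44hi, 37.3 and 28.2 FPKM in WT CD44hi and, in the CD44lo fraction, 25.6 FPKM in Dusp2-/- and 21.0 FPKM in WT. It averaged 65.7 ± 2.20 FPKM in Dusp2-/- CD44hi and 32.7 ± 6.45 FPKM in WT CD44hi (SD, n = 2 each), a ratio of 2.01, and its log2 fold change was 1.00 ± 0.12 (limma adjusted p = 0.00395). The paralog Scd1, the main form in liver, was far lower per length, at 2.94 and 3.15 FPKM in Dusp2-/- CD44hi, 0.977 and 0.653 FPKM in WT CD44hi and, in the CD44lo fraction, 0.565 FPKM in Dusp2-/- and 0.257 FPKM in WT. Its ratio was 3.74 in CD44hi, with a log2 fold change of 1.16 ± 0.12 on the log2(FPKM + 1) scale, which understates changes of low genes (limma adjusted p = 0.00243). These levels rest on 816 and 814 reads in Dusp2-/- CD44hi, 208 and 181 in WT CD44hi, 66 in Dusp2-/- CD44lo and 64 in WT CD44lo. Scd1 passed the filter only through its Dusp2-/- levels. For both desaturases the Dusp2-/- CD44hi libraries were the highest, the WT CD44hi libraries followed and the CD44lo libraries were lowest. Of 50-base windows, 4.66% in Scd1 and 1.33% in Scd2 occur in other genes, mostly in Scd3.

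Fads2, the delta-6 desaturase that starts polyunsaturated fatty acid synthesis, was at 4.39 and 4.17 FPKM in Dusp2-/- CD44hi, 1.42 and 1.14 FPKM in WT CD44hi and, in the CD44lo fraction, 0.763 FPKM in Dusp2-/- and 0.340 FPKM in WT. It averaged 4.28 ± 0.156 FPKM in Dusp2-/- CD44hi and 1.28 ± 0.195 FPKM in WT CD44hi (SD, n = 2 each), a ratio of 3.35, and its log2 fold change was 1.22 ± 0.10 (limma adjusted p = 0.00141). Within each fraction the Dusp2-/- libraries lay above the WT libraries. Fads2 passed the filter only through its Dusp2-/- levels. Fads1, the delta-5 desaturase that acts after it and is its neighbour on chromosome 19, was at 9.27 and 8.87 FPKM in Dusp2-/- CD44hi, 8.18 and 7.78 FPKM in WT CD44hi and, in the CD44lo fraction, 6.17 FPKM in Dusp2-/- and 5.71 FPKM in WT. The groups of Fads1 also did not overlap in CD44hi, but the difference, 0.17 ± 0.07 on the log2 scale, did not pass (limma adjusted p = 0.139). Elovl6, which elongates palmitate to stearate, was at 5.32 and 5.15 FPKM in Dusp2-/- CD44hi, 3.40 and 2.73 FPKM in WT CD44hi and, in the CD44lo fraction, 2.39 FPKM in Dusp2-/- and 2.05 FPKM in WT. Its log2 fold change in CD44hi was 0.62 ± 0.10 (limma adjusted p = 0.00955).

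**Figure D3:**
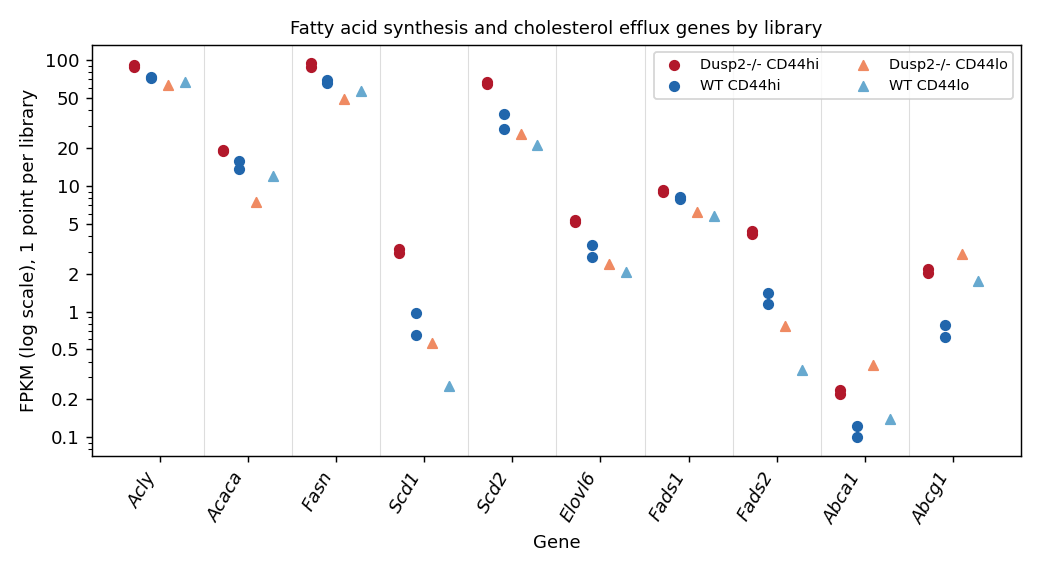
FPKM on a log axis of the 8 fatty acid genes and the 2 cholesterol exporters, 1 point per library, with circles for CD44hi and triangles for CD44lo. All 8 fatty acid genes have both Dusp2-/- CD44hi points above all other points, with the widest gaps in Scd1, Scd2 and Fads2. Acaca has its lowest point in the Dusp2-/- CD44lo library, and the exporters are highest in Dusp2-/- CD44lo.

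Of the 18 sterol enzymes, Idi1 and Hsd17b7 were higher in Dusp2-/- CD44hi cells. Idi1, isopentenyl diphosphate isomerase, which interconverts the isoprenoid units, was at 53.1 and 55.3 FPKM in Dusp2-/- CD44hi, 36.8 and 36.2 FPKM in WT CD44hi and, in the CD44lo fraction, 26.3 FPKM in Dusp2-/- and 23.9 FPKM in WT. It averaged 54.2 ± 1.60 FPKM in Dusp2-/- CD44hi and 36.5 ± 0.388 FPKM in WT CD44hi (SD, n = 2 each), and its log2 fold change was 0.56 ± 0.06 (limma adjusted p = 0.00273). Idi1 shares 30.5% of its 50-base windows with other annotated genes, so part of its reads is uncertain. Its paralog Idi2, read after the values of Idi1 were seen, was at 2.66 and 2.99 FPKM in Dusp2-/- CD44hi, 1.12 and 1.21 FPKM in WT CD44hi and, in the CD44lo fraction, 0.260 FPKM in Dusp2-/- and 0.523 FPKM in WT. Hsd17b7, the 3-keto-sterol reductase of the demethylation steps, was at 7.37 and 7.87 FPKM in Dusp2-/- CD44hi, 6.05 and 4.96 FPKM in WT CD44hi and, in the CD44lo fraction, 4.08 FPKM in Dusp2-/- and 3.10 FPKM in WT. For Idi1 and Hsd17b7 the Dusp2-/- libraries lay above the WT libraries in both fractions, whereas for Idi2 they did so in CD44hi and not in CD44lo. The log2 fold change of Hsd17b7 in CD44hi was 0.41 ± 0.10 (limma adjusted p = 0.0296). The promoter stretches of both, printed above, each hold 2 CCAAT matches, but CCAAT was held by 14 of 15 sterol enzymes with a promoter window.

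The enzymes before Idi1 were level with WT or lay below it. Acat2, which joins acetyl-CoA units, was at 26.4 and 27.9 FPKM in Dusp2-/- CD44hi, 27.1 and 27.6 FPKM in WT CD44hi and, in the CD44lo fraction, 27.4 FPKM in Dusp2-/- and 23.2 FPKM in WT. Acat2 shares 45.9% and Hmgcs1 13.6% of their 50-base windows with other annotated genes, so their levels are uncertain. Hmgcs1, HMG-CoA synthase, a textbook SREBP target and the gene with the sterol element printed above, was at 43.7 and 43.7 FPKM in Dusp2-/- CD44hi, 43.6 and 44.7 FPKM in WT CD44hi and, in the CD44lo fraction, 29.4 FPKM in Dusp2-/- and 31.2 FPKM in WT. Its genotype difference in CD44hi was -0.01 ± 0.06 on the log2 scale (limma adjusted p = 0.874), while the level differed between fractions. Then come the kinases Mvk and Pmvk and the decarboxylase Mvd, which turn mevalonate into the isoprenoid unit. Mvk was at 10.2 and 9.22 FPKM in Dusp2-/- CD44hi, 11.0 and 11.3 FPKM in WT CD44hi and, in the CD44lo fraction, 7.89 FPKM in Dusp2-/- and 9.10 FPKM in WT. Pmvk was at 18.4 and 19.2 FPKM in Dusp2-/- CD44hi, 21.9 and 20.5 FPKM in WT CD44hi and, in the CD44lo fraction, 16.9 FPKM in Dusp2-/- and 17.0 FPKM in WT. Mvd was at 19.5 and 18.8 FPKM in Dusp2-/- CD44hi, 21.4 and 23.7 FPKM in WT CD44hi and, in the CD44lo fraction, 20.8 FPKM in Dusp2-/- and 20.7 FPKM in WT. In these 3 genes both Dusp2-/- CD44hi libraries lay below both WT CD44hi libraries, as for 36.2% of all genes. Their log2 differences were -0.18, -0.16 and -0.22, and none passed (limma adjusted p = 0.121, 0.117 and 0.0629).

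From farnesyl diphosphate to lanosterol, 4 enzymes did not pass between genotypes in CD44hi. Fdps, farnesyl diphosphate synthase, was at 38.2 and 38.2 FPKM in Dusp2-/- CD44hi, 38.4 and 38.9 FPKM in WT CD44hi and, in the CD44lo fraction, 33.8 FPKM in Dusp2-/- and 32.7 FPKM in WT. Fdft1, squalene synthase, was at 25.0 and 25.9 FPKM in Dusp2-/- CD44hi, 24.7 and 25.3 FPKM in WT CD44hi and, in the CD44lo fraction, 19.5 FPKM in Dusp2-/- and 18.9 FPKM in WT. Fdps shares 86.4% and Fdft1 30.7% of their 50-base windows with other annotated genes, so their levels are uncertain. Sqle, squalene epoxidase, was at 26.2 and 26.5 FPKM in Dusp2-/- CD44hi, 26.3 and 22.2 FPKM in WT CD44hi and, in the CD44lo fraction, 15.7 FPKM in Dusp2-/- and 18.1 FPKM in WT. Lss, which closes the rings to lanosterol, was at 7.79 and 7.46 FPKM in Dusp2-/- CD44hi, 7.86 and 7.10 FPKM in WT CD44hi and, in the CD44lo fraction, 4.64 FPKM in Dusp2-/- and 5.86 FPKM in WT. For Sqle and Lss the CD44hi libraries of both genotypes overlapped, and the Dusp2-/- CD44lo library was the lowest.

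After lanosterol, Cyp51, the lanosterol demethylase, had the highest FPKM of the sterol enzymes in all 6 libraries. It was at 68.9 and 72.7 FPKM in Dusp2-/- CD44hi, 64.3 and 53.5 FPKM in WT CD44hi and, in the CD44lo fraction, 39.3 FPKM in Dusp2-/- and 41.3 FPKM in WT. Its groups did not overlap in CD44hi, yet the log2 difference of 0.27 ± 0.09 did not pass (limma adjusted p = 0.0790). Tm7sf2, a sterol reductase, had the lowest FPKM of the class, with 1.89 and 2.15 FPKM in Dusp2-/- CD44hi, 2.23 and 1.69 FPKM in WT CD44hi and, in the CD44lo fraction, 1.52 FPKM in Dusp2-/- and 1.49 FPKM in WT. Msmo1, the C4-methylsterol oxidase, was at 13.4 and 14.7 FPKM in Dusp2-/- CD44hi, 15.9 and 12.9 FPKM in WT CD44hi and, in the CD44lo fraction, 9.55 FPKM in Dusp2-/- and 9.54 FPKM in WT. Sc5d, the sterol C5-desaturase, was at 16.9 and 17.2 FPKM in Dusp2-/- CD44hi, 18.0 and 15.2 FPKM in WT CD44hi and, in the CD44lo fraction, 11.3 FPKM in Dusp2-/- and 10.9 FPKM in WT. In Msmo1 and Sc5d the WT CD44hi libraries enclosed the Dusp2-/- CD44hi libraries, and the CD44lo libraries were lowest. Dhcr7, the 7-dehydrocholesterol reductase, was at 9.20 and 10.4 FPKM in Dusp2-/- CD44hi, 11.2 and 8.57 FPKM in WT CD44hi and, in the CD44lo fraction, 6.91 FPKM in Dusp2-/- and 7.80 FPKM in WT.

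The X-linked enzymes are given apart because of the sex make-up of the Dusp2-/- CD44hi libraries. Nsdhl, which removes the C4-methyl groups with Msmo1, was at 17.8 and 16.1 FPKM in Dusp2-/- CD44hi, 17.7 and 13.8 FPKM in WT CD44hi and, in the CD44lo fraction, 13.2 FPKM in Dusp2-/- and 12.5 FPKM in WT. Ebp, the sterol isomerase, was at 20.5 and 20.1 FPKM in Dusp2-/- CD44hi, 19.6 and 18.8 FPKM in WT CD44hi and, in the CD44lo fraction, 21.2 FPKM in Dusp2-/- and 19.2 FPKM in WT. Neither passed between genotypes in CD44hi (limma adjusted p = 0.516 for Nsdhl and 0.399 for Ebp). The WT CD44hi libraries differed by more than the Dusp2-/- CD44hi libraries for 25 of the 33 genes, and for 6419 of all 9691 genes. Median differences of the 33 genes were 0.06 between the Dusp2-/- libraries and 0.13 between the WT libraries on the log2 scale. Over all 9691 genes these medians were 0.06 and 0.11.

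**Figure D4:**
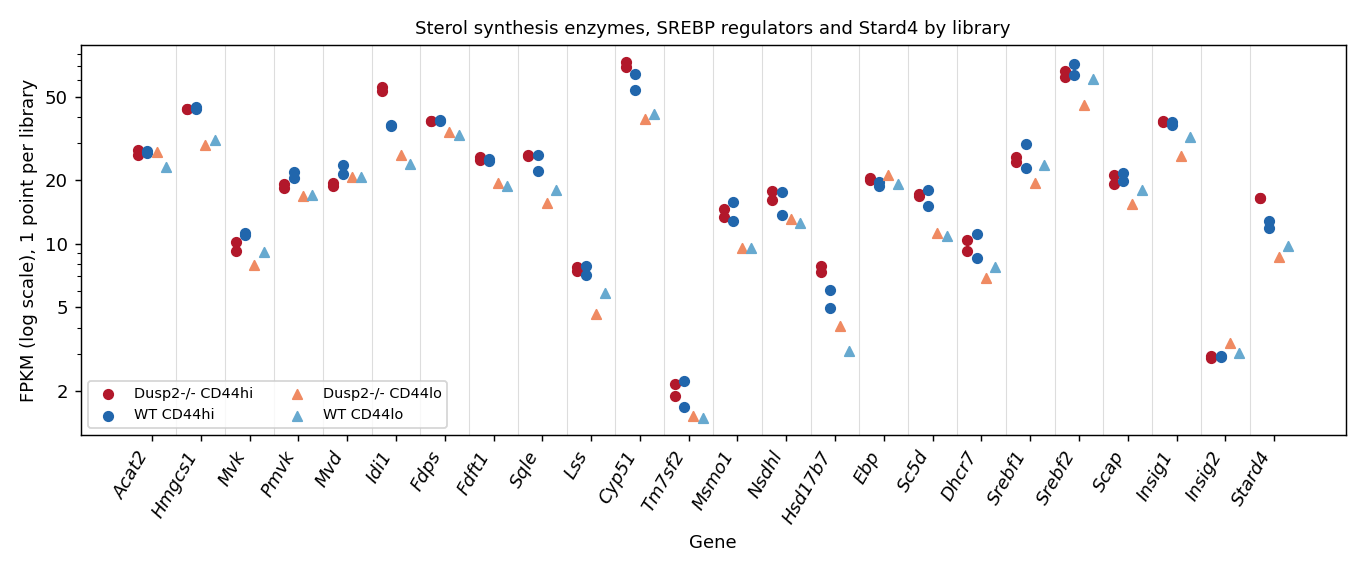
FPKM on a log axis of the 18 sterol synthesis enzymes in pathway order, the 5 SREBP regulators and the sterol carrier Stard4, 1 point per library. Idi1, Hsd17b7 and Stard4, which passed between genotypes, have both Dusp2-/- CD44hi points above the WT points. So do Cyp51, Ebp and Insig1, which did not pass. Most other enzymes are separated by CD44 fraction.

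The SREBP genes themselves did not pass between genotypes in CD44hi. Srebf1, which encodes SREBP-1, the factor known for fatty acid genes, was at 25.9 and 24.4 FPKM in Dusp2-/- CD44hi, 29.8 and 22.9 FPKM in WT CD44hi and, in the CD44lo fraction, 19.5 FPKM in Dusp2-/- and 23.6 FPKM in WT. Its log2 difference in CD44hi was -0.05 ± 0.12 (limma adjusted p = 0.760). Srebf2, which encodes SREBP-2, the factor known for sterol genes, was at 66.3 and 62.3 FPKM in Dusp2-/- CD44hi, 71.1 and 63.2 FPKM in WT CD44hi and, in the CD44lo fraction, 45.8 FPKM in Dusp2-/- and 60.6 FPKM in WT. Both factors had their lowest level in the Dusp2-/- CD44lo library. Scap, the escort that carries SREBP to the Golgi, was at 21.2 and 19.3 FPKM in Dusp2-/- CD44hi, 21.8 and 20.0 FPKM in WT CD44hi and, in the CD44lo fraction, 15.4 FPKM in Dusp2-/- and 18.0 FPKM in WT. Insig1, the retention protein that is itself a known SREBP target, was at 37.9 and 38.5 FPKM in Dusp2-/- CD44hi, 37.9 and 36.6 FPKM in WT CD44hi and, in the CD44lo fraction, 26.0 FPKM in Dusp2-/- and 32.1 FPKM in WT. Insig2, its paralog, was at 2.93 and 2.86 FPKM in Dusp2-/- CD44hi, 2.91 and 2.94 FPKM in WT CD44hi and, in the CD44lo fraction, 3.37 FPKM in Dusp2-/- and 3.04 FPKM in WT. It ran the other way between fractions, with both CD44lo libraries above all CD44hi libraries. Stard4, a sterol carrier and known SREBP target, was the one gene of the class to pass, at 16.6 and 16.4 FPKM in Dusp2-/- CD44hi, 11.8 and 12.9 FPKM in WT CD44hi and, in the CD44lo fraction, 8.62 FPKM in Dusp2-/- and 9.76 FPKM in WT. Its log2 fold change in CD44hi was 0.39 ± 0.07 (limma adjusted p = 0.0122).

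The exporters were higher in the Dusp2-/- than in the WT libraries of each fraction, and higher in CD44lo than in CD44hi of each genotype. Abcg1, which passes cholesterol to lipoproteins, was at 2.17 and 2.01 FPKM in Dusp2-/- CD44hi, 0.784 and 0.626 FPKM in WT CD44hi and, in the CD44lo fraction, 2.84 FPKM in Dusp2-/- and 1.75 FPKM in WT. It was higher in Dusp2-/- in CD44hi, with a ratio of 2.96 and a log2 fold change of 0.86 ± 0.10 (limma adjusted p = 0.00352), and it was lower in CD44hi than in CD44lo within each genotype. Abca1, which passes cholesterol to lipid-poor apolipoproteins, was not tested. It was at 0.221 and 0.237 FPKM in Dusp2-/- CD44hi, 0.0998 and 0.123 FPKM in WT CD44hi and, in the CD44lo fraction, 0.376 FPKM in Dusp2-/- and 0.140 FPKM in WT, from 130 and 130, 45 and 72, 93, and 74 reads in the same order. Its order over the groups was like that of Abcg1 within each genotype, with CD44lo above CD44hi.

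Between fractions, most synthesis genes were higher in CD44hi than in CD44lo cells in both genotypes. With genotype as a covariate and 4 CD44hi against 2 CD44lo libraries, 20 of the 33 genes were higher in CD44hi and 1, Abcg1, was lower, while 16.6% of all genes were higher and 10.8% lower. By class, 10 of 18 sterol enzymes, 3 of 6 regulators and 7 of 8 fatty acid genes were higher. Median log2 fold changes were 0.37, 0.30 and 0.71 for these classes, beside 0.05 for all genes. Scd1 and Fads2, among the 7 fatty acid genes, were under 1 FPKM in both CD44lo libraries. They passed the filter only through their CD44hi levels, so their calls, and their part in the class median, are tied to it. The CD44hi libraries lay above the CD44lo library in both genotypes for 27 of the 33 genes, as for 32.6% of all genes, and below it for 2, as for 21.9% of all genes. The sort itself was reflected in Cd44, at 65.4 and 66.3 FPKM in Dusp2-/- CD44hi and 79.9 and 65.3 FPKM in WT CD44hi, against 1.33 FPKM in Dusp2-/- CD44lo and 1.43 FPKM in WT CD44lo. With 1 CD44lo library per genotype, the error comes from an additive model that takes the fraction difference as equal in both genotypes.

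Of the 18 sterol enzymes, the largest differences between fractions were those of Idi1 (0.80 ± 0.10, limma adjusted p = 0.00158), Hsd17b7 (0.71 ± 0.10, adjusted p = 0.00227) and Cyp51 (0.66 ± 0.11, adjusted p = 0.00450). Sqle, Sc5d, Msmo1 and Hmgcs1 followed, at log2 fold changes of 0.56, 0.55, 0.52 and 0.52 (limma adjusted p = 0.00736, 0.00399, 0.00809 and 0.00172). Lss (0.46), Fdft1 (0.38) and Mvk (0.26) also passed, with limma adjusted p of 0.0148, 0.00717 and 0.0463. Dhcr7 (0.37), Nsdhl (0.32), Tm7sf2 (0.25), Pmvk (0.22), Fdps (0.20) and Acat2 (0.11) did not, with limma adjusted p from 0.0532 to 0.371. Mvd and Ebp had differences of 0.00 ± 0.09 and -0.03 ± 0.07. Hmgcs1, with a genotype difference near 0 in CD44hi, was 1.49 times as high in CD44hi as in CD44lo in Dusp2-/- cells and 1.42 times in WT cells.

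Of the fatty acid genes, Fads2 had the largest difference between fractions (1.17 ± 0.18, limma adjusted p = 0.00344), followed by Scd2 (0.96 ± 0.17, adjusted p = 0.00656) and Scd1 (0.95 ± 0.19, adjusted p = 0.0105). The calls of Fads2 and Scd1 are tied to the filter, as described above. Acaca (0.77), Elovl6 (0.64), Fasn (0.56) and Fads1 (0.45) also passed, with limma adjusted p of 0.0268, 0.0115, 0.0230 and 0.00590. Acly, at 0.30 ± 0.10, did not (adjusted p = 0.0576). Fads1 thus differed between fractions but did not pass between genotypes. In the regulator class, Stard4 (0.59), Insig1 (0.37) and Scap (0.29) were higher in CD44hi (limma adjusted p = 0.0137, 0.0219 and 0.0447), whereas Srebf2 (0.31), Srebf1 (0.24) and Insig2 (-0.10) did not pass (limma adjusted p = 0.0587, 0.155 and 0.423). Abcg1 was lower in CD44hi by a log2 fold change of -0.50 ± 0.12 (limma adjusted p = 0.0199).

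**Figure D5:**
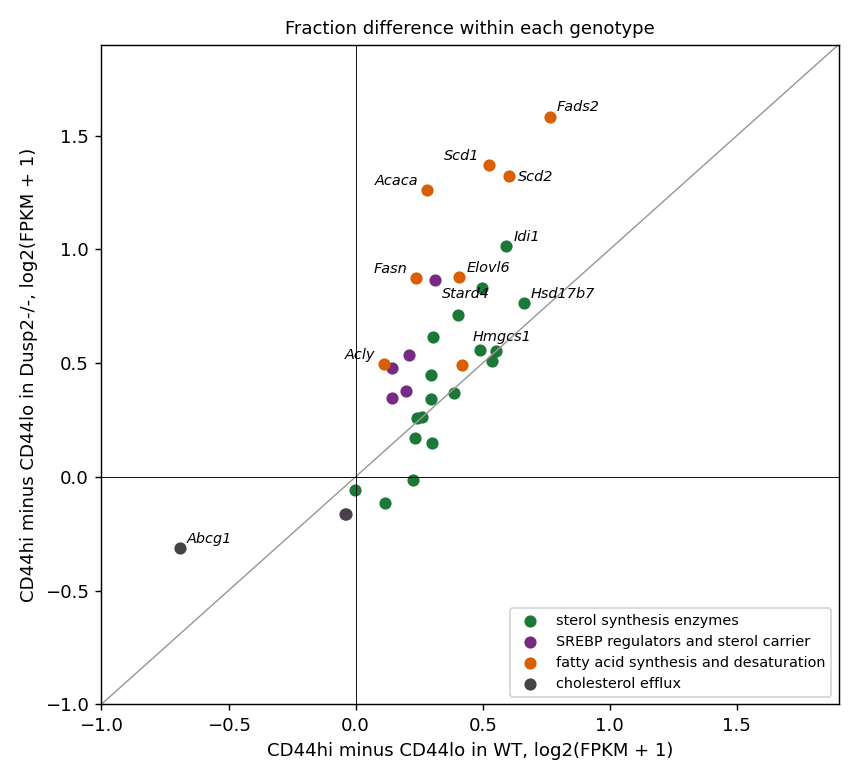
Difference of CD44hi minus CD44lo on the log2(FPKM + 1) scale in Dusp2-/- (vertical) and WT (horizontal) for the 34 genes, coloured by class, with the line of equal differences. The 8 fatty acid genes lie above the line, 10 of the 18 sterol enzymes lie above it and 8 below, and Abcg1 is negative on both axes. Scd1 and Fads2, among the 8 fatty acid genes, passed the filter only through their Dusp2-/- CD44hi levels.

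Whether the genotype difference was larger in one fraction was tested as an interaction. In the table, 4.22% of all genes passed in either direction. Of the 33 genes, Acaca (0.98 ± 0.15, limma adjusted p = 0.0331) and Fasn (0.63 ± 0.12, adjusted p = 0.0444) passed, both with a larger Dusp2-/- minus WT difference in CD44hi. All 8 fatty acid genes had a positive interaction, with a median of 0.68, beside -0.01 for all genes. Scd1 and Fads2, among the 8, passed the filter only through their Dusp2-/- CD44hi levels. The sterol enzymes had a median of 0.01, and 10 of 18 were positive. Over all genes, 4766 of 9691 were positive. Put the other way, the median CD44hi minus CD44lo difference of the fatty acid genes was 1.07 in Dusp2-/- and 0.41 in WT, and that of the sterol enzymes was 0.41 in Dusp2-/- and 0.30 in WT. The difference of Acaca was 1.26 in Dusp2-/- and 0.28 in WT, and that of Fasn 0.87 in Dusp2-/- and 0.24 in WT. Stard4 (0.55), Fads2 (0.82), Scd1 (0.84), Idi1 (0.42), Acly (0.38) and Scd2 (0.72) had limma adjusted p from 0.0564 to 0.0946. The interaction rests on 1 CD44lo library per genotype, of which the Dusp2-/- one has the fewest reads, and neither Acaca (0.54, adjusted p = 0.0629) nor Fasn (0.35, adjusted p = 0.123) passed once a trend on gene length was removed.

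In CD44lo cells, with 1 library per genotype, the genotype difference is given as values without a test. Past 1.5-fold on the log2(FPKM + 1) scale, 0 of the 33 genes were higher in Dusp2-/- and 1, Acaca at a log2 difference of -0.62, was lower, beside 2.96% of all genes higher and 3.98% lower. With the length trend removed, 0 were past 1.5-fold in either direction. The log2 differences of the other fatty acid genes, none past 1.5-fold, were -0.08 for Acly, -0.20 for Fasn, 0.15 for Elovl6, 0.10 for Fads1, 0.40 for Fads2, 0.32 for Scd1 and 0.28 for Scd2. Those of the 6 regulators, also none past 1.5-fold, had a median of -0.24 and were negative for 5, with Srebf2 at -0.40. The sterol enzymes had a median of 0.01. The fatty acid sum was 155 FPKM in Dusp2-/- CD44lo and 165 FPKM in WT CD44lo, and the ratio of the fatty acid sum to the sterol sum was 0.502 in Dusp2-/- CD44lo and 0.539 in WT CD44lo.

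A model with CD44 fraction as a covariate used 3 libraries of each genotype and took the genotype difference as equal in both fractions. In it 6 of the 33 genes were higher in Dusp2-/- and 0 were lower (8 at an unadjusted p under 0.05 by limma), while 5.23% of all genes were higher and 5.17% lower. They were Fads2 (0.94 ± 0.17, limma adjusted p = 0.0185), Scd1 (0.88 ± 0.18, adjusted p = 0.0266), Scd2 (0.76 ± 0.16, adjusted p = 0.0311), Abcg1 (0.73 ± 0.11, adjusted p = 0.0105), Idi1 (0.42 ± 0.10, adjusted p = 0.0390) and Hsd17b7 (0.38 ± 0.09, adjusted p = 0.0477). Each of the 6 was higher in Dusp2-/- within both fractions. Scd1 and Fads2, among them, passed the filter only through their Dusp2-/- levels. Over the 33 genes, 9 were above WT in both fractions, as for 18.7% of all genes, and 2, Mvk and Pmvk, were below, as for 21.7%. Acaca, Fasn, Acly and Stard4, which were higher in Dusp2-/- CD44hi, had log2 differences of 0.04, 0.22, 0.17 and 0.21 here, and each had a negative difference in CD44lo (limma adjusted p from 0.277 to 0.928). This comparison and that in CD44hi share the CD44hi libraries. The count of 6 genes depended on single libraries: without 1 of the CD44hi libraries it came to 0 or 1. Without 1 of the CD44lo libraries, the fraction term takes up the CD44lo library that remains. That fit repeats the CD44hi comparison, so it gives no check on the CD44lo libraries.

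Other genes of the same pathways were taken from lists of known genes. Of 18 further fatty acid synthesis genes tested, 5 were higher in Dusp2-/- CD44hi and 0 were lower, beside 12.9% and 13.8% of all genes. Acsl3, a long-chain acyl-CoA synthetase of lipid droplets, was at 7.25 and 7.22 FPKM in Dusp2-/- CD44hi and 3.87 and 2.88 FPKM in WT CD44hi (log2 fold change 0.92, limma adjusted p = 0.00433). Mid1ip1, an activator of acetyl-CoA carboxylase, was at 8.27 and 7.61 FPKM in Dusp2-/- CD44hi and 5.37 and 5.53 FPKM in WT CD44hi (0.47, adjusted p = 0.00934). Slc25a1, the mitochondrial citrate carrier that feeds Acly, was at 40.6 and 40.3 FPKM in Dusp2-/- CD44hi and 32.0 and 33.6 FPKM in WT CD44hi (0.30, adjusted p = 0.0177). In these 3 genes and in Acsl4, given next, both Dusp2-/- CD44hi libraries lay above both WT libraries, as for 32.0% of all genes. Acsl4, an acyl-CoA synthetase for polyunsaturated fatty acids, was at 24.5 and 24.1 FPKM in Dusp2-/- CD44hi and 19.4 and 16.2 FPKM in WT CD44hi (0.43, limma adjusted p = 0.0181). Mid1ip1 and Acsl4 are X-linked, and genotype cannot be told apart from the sex make-up of the Dusp2-/- CD44hi libraries. The list's median log2 fold change was 0.13. These 5 genes were also the ones higher with fraction as a covariate, where 5.23% of all genes were higher.

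Of 17 fatty acid oxidation genes, 0 were higher and 2 lower in Dusp2-/- CD44hi, no larger a share than the 13.8% of all genes that were lower; their median was -0.13. Acadm, the medium-chain acyl-CoA dehydrogenase, was at 22.7 and 24.4 FPKM in Dusp2-/- CD44hi and 30.0 and 30.3 FPKM in WT CD44hi (-0.35, limma adjusted p = 0.0137). Acaa2, the mitochondrial thiolase, was at 32.4 and 31.3 FPKM in Dusp2-/- CD44hi and 37.6 and 40.0 FPKM in WT CD44hi (-0.28, limma adjusted p = 0.0243). Neither passed with fraction as a covariate, where 0 of the 17 were called by limma (5 at an unadjusted p under 0.05), and between fractions 0 were called (1 unadjusted). Of 19 further sterol genes, 1 was higher and 1 lower in Dusp2-/- CD44hi, smaller shares than the 12.9% and 13.8% of all genes. Soat1, which esterifies cholesterol for storage, was at 5.01 and 5.15 FPKM in Dusp2-/- CD44hi and 3.83 and 3.26 FPKM in WT CD44hi (0.42, limma adjusted p = 0.0215). Nr1h2, which encodes LXR-beta, was at 24.7 and 23.8 FPKM in Dusp2-/- CD44hi and 29.1 and 30.3 FPKM in WT CD44hi (-0.28, limma adjusted p = 0.0212).

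Between fractions, 5 of these 19 sterol genes were higher and 4 lower in CD44hi, beside 16.6% and 10.8% of all genes. The lower ones included Npc2, which carries cholesterol out of lysosomes, at 69.4 and 66.9 FPKM in Dusp2-/- CD44hi and 73.5 and 72.6 FPKM in WT CD44hi, against 134 FPKM in Dusp2-/- CD44lo and 132 FPKM in WT CD44lo (-0.90, limma adjusted p = 0.000185). Mylip, an LXR-driven ubiquitin ligase for lipoprotein receptors, was also lower in CD44hi (-0.71, limma adjusted p = 0.00291). Of the 18 further fatty acid genes, 5 were higher and 1 lower in CD44hi, beside the same shares of all genes. Acsl4 (0.59, limma adjusted p = 0.00418), Hacd3 of the elongation cycle (0.58, adjusted p = 0.00437) and Gpam of glycerolipid synthesis (0.49, adjusted p = 0.0179) were higher, and Acss2, which makes acetyl-CoA from acetate, was lower (-0.50, adjusted p = 0.0113).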

How the data were processed

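Expression was measured by RNA-seq of 6 libraries. The authors deposited 1 table of FPKM, with 0 columns left unused, and per the labels' protocols RNA was extracted with Trizol and libraries followed Illumina protocols. Per the submitters' processing notes, the aligner HISAT2 2.0.5 was used, and both a mouse build (mm39) and a human one (hg38) are listed. Which read counter and annotation were used, and whether strand was, is not given in the sources used here. The labels also mention 10X Genomics, although the table holds 1 value per gene and library. Groups were read from the sample titles.

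The test, with a pseudocount of 1, used log2(FPKM + 1) of the 9691 genes that averaged 1 FPKM or more, with limma 3.58.1 in R 4.3.3 (variance trend, two-sided, Benjamini-Hochberg over all genes, threshold 0.05). A model with 1 mean per group (2 residual degrees of freedom) gave the genotype difference in CD44hi and the interaction. An additive model (3 residual degrees of freedom) gave the adjusted genotype and fraction differences. CD44lo alone, with 1 library per genotype, had no test. The scripts were tested on simulated data. FPKM values of a gene are whole multiples of the worth of 1 read, so reads were recovered: 16220 of 16220 genes above 0 in at least 2 libraries came out whole within 1e-06 reads, against 14 of 300 perturbed genes. They served for depth, gene length and an alternative with limma's voom on library sizes scaled by trimmed means of M values. FPKM totals ran from 301211 to 332997. The replicates of each CD44hi group differed by more than counting error (chi-square per degree of freedom 8.29 for Dusp2-/- and 41.1 for WT).

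The genes, classes and lists were chosen with earlier results of these data known. Named genes are the 34 genes, Dusp2, Rpa1 and Cd44, and of each list of other pathway genes up to 4 past the threshold with the smallest p in a comparison. Idi2, Cd79a, Cd79b, Ighm, Xist and Ddx3y fall outside this rule and were named after values were seen. Some genes of these lists are not reported here. Cell type markers were taken from lists of known genes. Promoters came from RefSeq windows of GRCm38.p6, a build other than the one in the processing notes, matched by symbol. Shared 50-base windows were counted in GENCODE transcripts of the same build. Replicate numbers were not used to pair samples in the main models. Deviations of same-numbered CD44hi libraries correlated at 0.02 across genes, which cannot tell whether these libraries shared an origin. Alternatives varied the pseudocount, the filter, the scaling, the gene length trend, the variance model, the replicate block and each library.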

Additional observations from a re-analysis of the deposited data

Results flagged for a closer look

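The genotype difference differed between the fractions, by the test of the interaction, for Acaca and Fasn. The Dusp2-/- minus WT difference in CD44hi minus that in CD44lo was 0.98 on the log2 scale for Acaca and 0.63 for Fasn. For Acaca the genotype difference was 0.36 in CD44hi and -0.62 in CD44lo, and for Fasn it was 0.43 in CD44hi and -0.20 in CD44lo. Both genes are long, and differences between genotypes were related to gene length in opposite directions in the fractions, with Spearman's rho of 0.27 in CD44hi and -0.33 in CD44lo over 9691 genes. With the length trend removed the interaction was 0.54 for Acaca and 0.35 for Fasn, and neither passed limma's threshold (adjusted p = 0.0629 and 0.123). Without either Dusp2-/- CD44hi library Fasn did not pass (adjusted p = 0.0966 and 0.0508).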

How the results depend on the processing

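No gene reported as past the threshold changed sign under the alternatives run. In CD44hi, the 11 genes higher in Dusp2-/- became 0 without a filter (2 of 18122 genes were called in all; 15 of these genes at an unadjusted p under 0.05) and 7 with a mean of at least 5 FPKM, which leaves fewer genes to test, and ranged from 7 to 15 when 1 library was left out. The 21 genes called between fractions became 13 without a filter and ranged from 14 to 24 when 1 library was left out. The 6 genes called with fraction as a covariate became 0 without a filter (9 unadjusted) and 3 with a mean of at least 5 FPKM. They became 3 with libraries rescaled to a total of 1000000, and 0 or 1 without 1 of the CD44hi libraries. Without 1 of the CD44lo libraries, that fit repeats the CD44hi comparison. For the interaction, the 2 genes became 0 without a filter (10 unadjusted), 0 without the length trend (9 unadjusted), 0 without a variance trend (11 unadjusted), 4 with quantile normalization, 5 after rescaling, 5 with voom on recovered reads, and 1 to 15 when 1 library was left out. The single gene past 1.5-fold in CD44lo became 4 and 2 with pseudocounts of 0.1 and 0.5, 2 after rescaling, and 0 with quantile normalization or without the length trend. The causes of these shifts were not tested. Most counts under the alternatives are given without the share of all genes called, so they cannot be read as particular to these genes. With the replicate number as a block, the counts were 13 in CD44hi, 14 between fractions, 3 with fraction as a covariate and 7 for the interaction. Whether same-numbered libraries shared an origin is not known.

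Rescaling moved the median log2 difference of all genes between fractions to 0.12, in CD44lo to -0.11 and in the interaction to 0.13, and changed the split over all genes to 1292 higher and 914 lower in CD44hi and 1803 higher and 801 lower between fractions. Median-ratio scaling gave 1328 higher and 1281 lower between fractions, and voom 1281 and 1250. Idi1, Fasn, Scd1, Scd2, Elovl6, Fads2 and Abcg1 kept their call in CD44hi under each alternative in which they were tested but the missing filter; Scd1, Elovl6, Fads2 and Abcg1 were not tested with a mean of at least 5 FPKM. Hmgcs1, Idi1, Hsd17b7, Sqle, Cyp51, Msmo1, Sc5d, Scd2, Fads1 and Fads2 kept theirs between fractions under each in which they were tested, which for Fads2 leaves out the filter at 5 FPKM. Mvk kept its call between fractions in 6 of 18 alternatives and Scap in 9 of 18. Scd1 and Fads2 in CD44lo rest on 57 to 66 reads per library, and 1 CD44lo library per genotype limits both the interaction and the fraction comparison.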
